A study of Mus musculus with 2 samples.

Results

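The collagen chain genes are the 44 genes, of the 32285 listed in the deposited matrices, whose symbol has the form Col, a number, a and a number, such as Col1a1. They were chosen by symbol and no measured value enters the rule, but earlier results of these data were known at the choice. They were read in single-cell RNA libraries of pancreatic tumours from KPPC mice, with 1 library from mice given vehicle and 1 from mice given takinib at 50 mg/kg. The mice were 6 weeks old and were treated for 14 days. KPPC is the only description of the strain in the labels; the name is used for engineered mice in which a Cre driver active in the pancreatic epithelium starts tumours there, in an otherwise unaltered host. Takinib is an inhibitor of the kinase TAK1, which relays signals from cytokine receptors. The number of mice pooled in a library is not given in the sources used here.

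Collagens are the main fibrous proteins of the extracellular matrix, built as trimers of alpha chains that are hydroxylated and folded in the endoplasmic reticulum and then secreted. Fibrillar chains form the banded fibrils of scar-like stroma, type IV chains form the sheet under epithelium and around vessels, and type VI chains form beaded filaments. Pancreatic cancer is known for a dense, collagen-rich stroma made largely by fibroblasts.

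Of the 44 genes, 33 had at least 50 counts in either library and 11 did not. Col9a1, a cartilage chain, had 0 counts in both libraries and Col22a1, a chain of tissue junctions, had 0 in takinib. The vehicle library gave 9558 cells with a median of 3556 UMIs (molecular tags that count captured transcripts) and the takinib library 25183 cells with a median of 2887, out of 80850334 and 139292875 UMIs in all. Of the barcodes of these cells, 359 occurred in both libraries. With 1 library in each group there is no replicate, no test was made, and every interval covers counting error only. The libraries also differed in sex: the vehicle library held cells with Y-linked transcripts and cells with Xist, whereas 0 takinib cells in any class had a Y-linked UMI. Sex and treatment therefore cannot be told apart where only whole libraries are compared, and values in the vehicle cells of each sex are given where a result turns on them. Takinib cells of the stromal classes also carried more transcripts of neutrophil genes. In fibroblast-like cells 8 of 9 neutrophil markers were detected in each library, with Ly6g at 0, and their sum was 104 CPM (counts per 1000000 UMIs of the class) in vehicle and 4980 in takinib. In endothelial-like cells the sum was 105 CPM in vehicle, from 8 of 9 markers, and 15746 in takinib, from all 9, and in epithelial-like cells it was 119.6 and 10830. The part of these transcripts in the collagen values was not tested.

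The promoters of 4 genes on which the results turn are shown first, as the 250 bases before the start site in the RefSeq GRCm38.p6 table, which held 35 of the 44 genes. The motifs searched on both strands were the TATA box as TATAAA, the GC box as GGGCGG, the CCAAT box, the AP-1 site as TGANTCA and the NF-kB consensus by name. Capitals mark the matches in these windows, which are all TATA or GC boxes and do not overlap. Col3a1 (chr1:45311288-45311537, plus strand) encodes the fibrillar chain of type III and was held mainly by fibroblast-like cells in vehicle. Col8a1 (chr16:57754738-57754987, minus strand) encodes a short chain that forms hexagonal networks and had the lowest takinib to vehicle ratio in fibroblast-like cells. Col10a1 (chr10:34389731-34389980, plus strand) encodes the type X chain known from growth plate cartilage and was held mainly by perivascular-like cells in vehicle; its promoter lies inside the gene Nt5dc1 on the opposite strand. Col5a1 (chr2:27886175-27886424, plus strand) encodes a chain that starts and narrows fibrils and was counted in erythroid-like cells nearly without its partner chain; its window lies inside the gene 2810430I11Rik on the opposite strand.
Col3a1: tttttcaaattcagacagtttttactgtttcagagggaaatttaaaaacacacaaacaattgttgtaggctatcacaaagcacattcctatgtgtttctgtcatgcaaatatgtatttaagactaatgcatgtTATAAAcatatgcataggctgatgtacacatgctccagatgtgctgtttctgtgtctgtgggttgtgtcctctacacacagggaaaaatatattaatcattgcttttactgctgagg
Col8a1: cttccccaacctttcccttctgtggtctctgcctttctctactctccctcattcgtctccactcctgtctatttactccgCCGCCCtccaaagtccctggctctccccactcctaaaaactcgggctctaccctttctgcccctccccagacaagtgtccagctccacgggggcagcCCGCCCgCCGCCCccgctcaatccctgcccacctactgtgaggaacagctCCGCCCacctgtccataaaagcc
Col10a1: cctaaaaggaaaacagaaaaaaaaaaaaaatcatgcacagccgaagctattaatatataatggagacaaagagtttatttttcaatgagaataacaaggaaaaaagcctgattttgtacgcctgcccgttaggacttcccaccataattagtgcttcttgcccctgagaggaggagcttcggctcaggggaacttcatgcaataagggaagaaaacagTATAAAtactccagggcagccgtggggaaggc
Col5a1: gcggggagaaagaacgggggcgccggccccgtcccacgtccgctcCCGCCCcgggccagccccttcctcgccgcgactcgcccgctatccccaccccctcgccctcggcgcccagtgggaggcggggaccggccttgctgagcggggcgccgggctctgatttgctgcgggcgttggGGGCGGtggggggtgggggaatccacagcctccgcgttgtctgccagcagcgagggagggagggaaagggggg

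The Col10a1 window held a TATAAA match 32 to 27 bases before the start, and the Col3a1 window one 117 to 112 bases before it. The Col8a1 window held 4 GGGCGG matches, all on the strand opposite the gene, and the Col5a1 window 2. For these counts the first window listed for each gene was used, and second windows were left out. TATAAA occurred in 5 of the 35 collagen promoters and in 13.0% of the 27025 promoters of the table, and GGGCGG in 21 of 35 and in 32.9%. TGANTCA was found in 1 collagen promoter, that of Col6a1, against 6.87% of all promoters, and the NF-kB consensus in 4, those of Col27a1, Col4a2, Col6a4 and Col9a2, against 7.01%.

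In the vehicle library, collagens of different roles were held mainly by different cell classes. Cells were grouped into classes by marker genes that include no collagen, and a class is written "X-like" for that reason. Fibroblast-like cells held 77.4% of the Col1a1 counts, 78.9% of Col1a2 and 73.9% of Col3a1, the chains of the type I and type III fibrils. They also held 90.9% of Col11a1, a minor fibril chain, 81.4% of Col12a1, which coats fibrils, and 93.1% of Col8a2. Perivascular-like cells, the contractile cells on vessels, held 94.96% of Col10a1, with 2131 of its 2244 counts. The same cells held 70.6% of Col6a3 and 63.6% of Col5a3, whereas Col6a1 and Col6a2, which assemble with Col6a3, were mainly in fibroblast-like cells with 45.7% and 48.6%. The vessel basement membrane chains were divided between the cells of the vessel wall: endothelial-like cells held 40.9% of Col4a1 and 41.5% of Col4a2, and perivascular-like cells 39.6% and 39.2%. Endothelial-like cells held 89.95% of Col13a1, a transmembrane collagen.

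**Figure D1:**
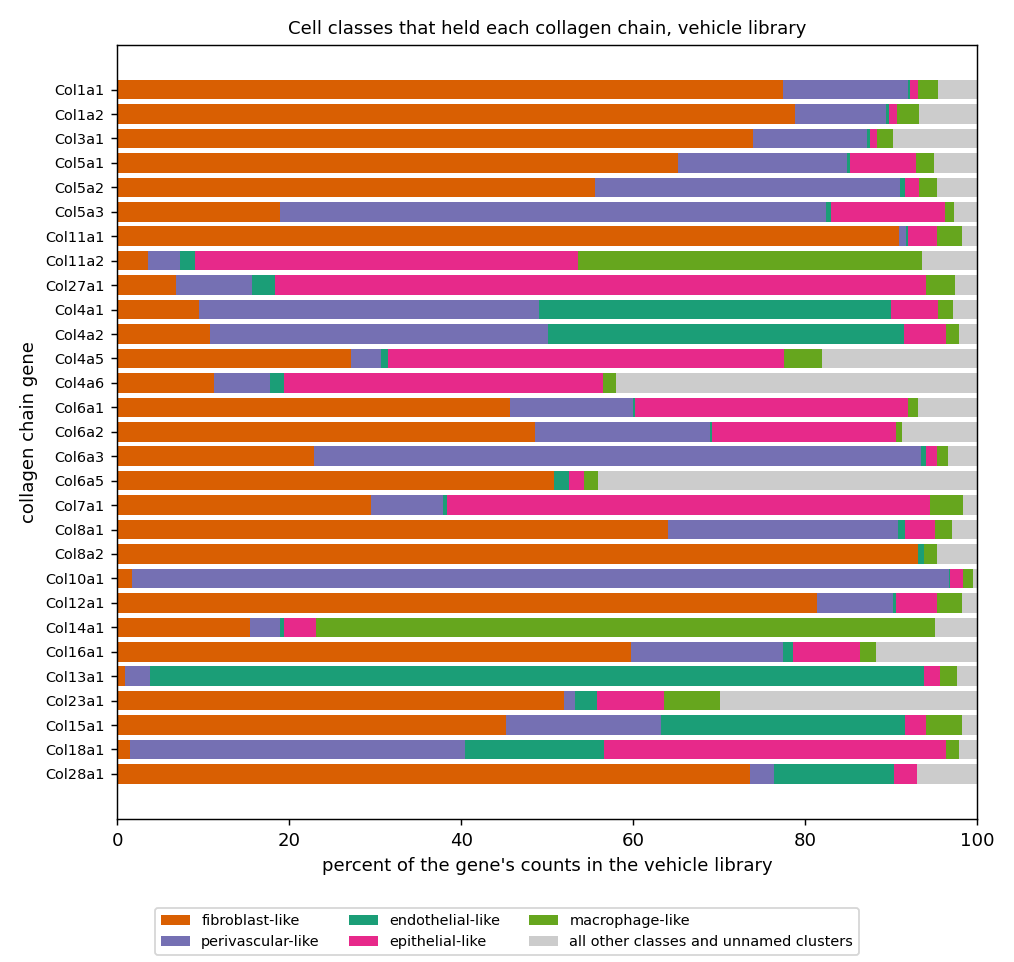
Share of each gene's vehicle counts (x axis, percent) held by each class, for the 29 chain genes with at least 50 vehicle counts (y axis, by role group). Most fibrillar chains are mainly fibroblast-like, Col10a1 is almost wholly perivascular-like, Col13a1 endothelial-like, Col27a1 epithelial-like and Col14a1 macrophage-like.

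For a few chains the class with the largest share of vehicle counts lay outside the mesenchyme. Epithelial-like cells held 75.6% of Col27a1, a fibrillar chain of cartilage, 56.1% of Col7a1, the anchoring fibril that fastens epithelium to stroma, 46.1% of Col4a5 and 39.7% of Col18a1, the basement membrane chain whose end fragment is endostatin. Perivascular-like cells held 38.9% of Col18a1, close to the epithelial-like share. Vehicle epithelial-like cells numbered 1716 and fibroblast-like cells 561. By level, Col7a1 and Col4a5 were higher in vehicle fibroblast-like cells, at 119.6 and 72.2 CPM, than in epithelial-like cells, at 42.7 and 23.0 CPM. Col14a1, a chain that binds to fibril surfaces, had 72.0% of its vehicle counts in macrophage-like cells, 1686 counts at 81.8 CPM. Its level was higher in vehicle fibroblast-like cells, at 169 CPM, while the macrophage-like class numbered 4731 cells. In macrophage-like clusters 0, 2, 3 and 6 Col14a1 stood at 72.9, 49.03, 93.9 and 78.1 CPM, and 0 counts were found in cluster 1. In takinib clusters 0, 2, 3 and 6 stood at 19.7, 22.8, 53.9 and 18.9 CPM, below vehicle in each, and cluster 1 at 2.87. The next highest chain in vehicle macrophage-like cells was Col1a1 at 38.9 CPM.

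**Figure D2:**
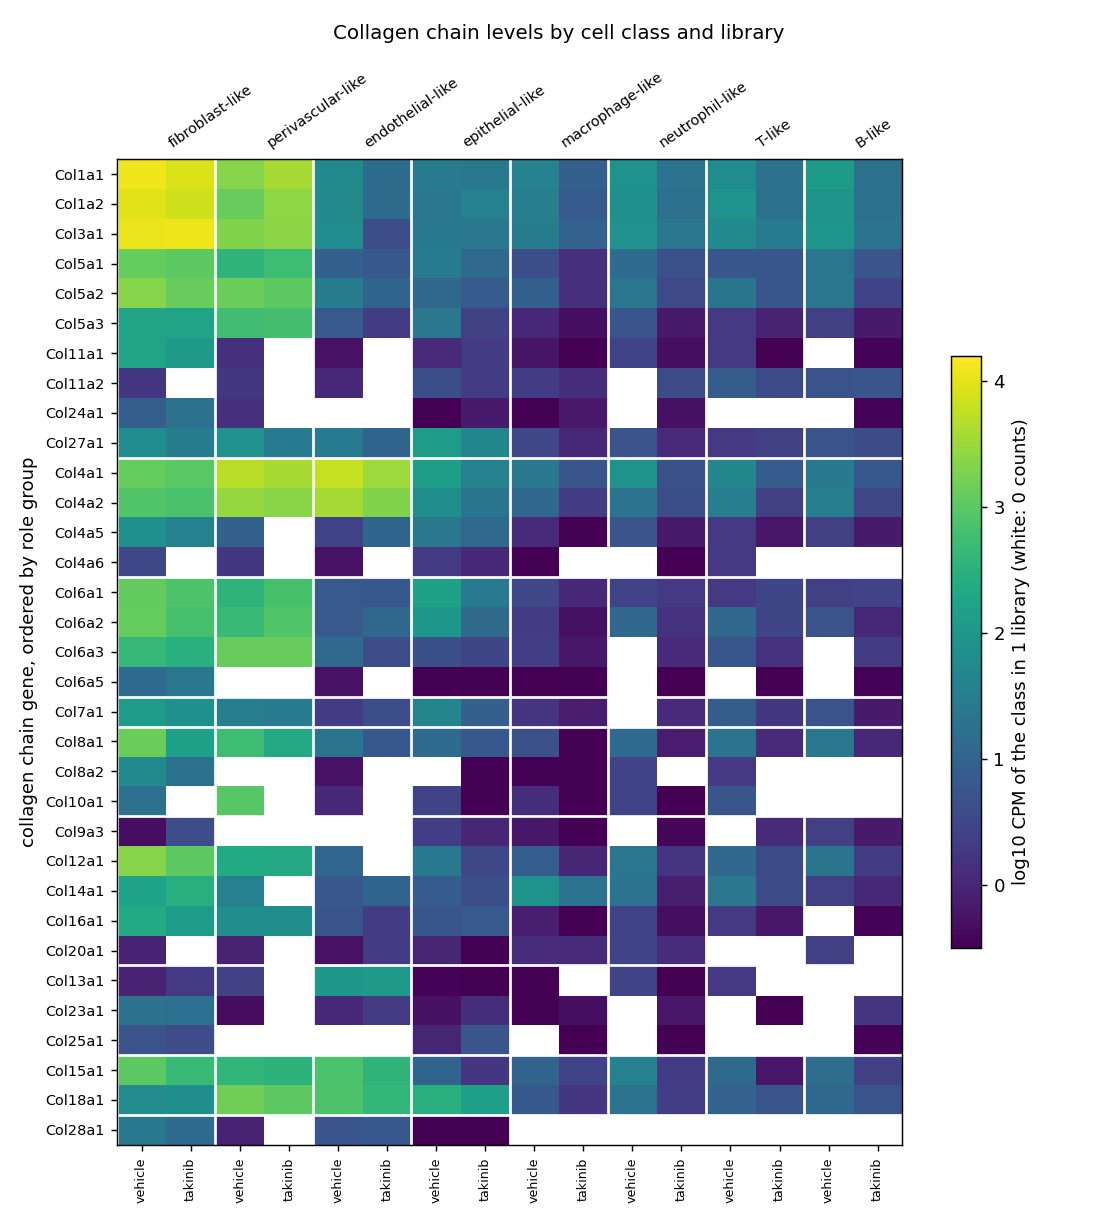
Level of each chain gene with at least 50 counts in either library (rows, by role group) in 8 classes of each library (columns); colour gives log10 CPM and white means 0 counts. The type I and III rows are brightest in fibroblast-like cells, the Col4a1 and Col4a2 rows in endothelial-like and perivascular-like cells.

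Collagen transcripts made up a smaller part of the takinib library. Over kept cells they were 0.484% of UMIs in vehicle and 0.0791% in takinib, and over all deposited barcodes 0.345% and 0.0744%. The number of collagen-rich cells differed too: 561 fibroblast-like, 585 perivascular-like and 632 endothelial-like cells were kept in vehicle, and 95, 14 and 74 in takinib. Vehicle epithelial-like cells numbered 1716 and takinib ones 1928, while neutrophil-like cells numbered 267 and 8209. For a whole library, fewer cells of a class and less collagen RNA per cell cannot be told apart, so the values below are within classes. Over all kept cells Col8a1 stood at 111 CPM in vehicle and 2.76 in takinib, and Col10a1 at 53.4 and 0.175.

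Within fibroblast-like cells the collagen share of UMIs was 4.82% in vehicle and 3.60% in takinib, a log2 ratio of -0.42. The vehicle cells themselves spanned a wider range by sex: the share was 3.51% in 118 female cells and 5.26% in 175 male cells, so the takinib value lay between them. A further 255 vehicle cells had neither mark and 13 had both. Of the 23 chain genes with at least 50 counts in either library of this class, 5 were at least 2-fold lower in takinib and 0 at least 2-fold higher. The same thresholds were passed by 9.93% and 2.69% of the 6012 genes compared. The other 21 chain genes had too few counts, and 6 of the 23 were compared on their vehicle counts alone. The median log2 ratio of the 23 was -0.69, against -0.13 for all genes compared; 20 were below 0 and 3 above.

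Col8a1 differed most. It stood at 1396 CPM in vehicle fibroblast-like cells and at 155 in takinib, 8.98-fold lower, with a log2 ratio of -3.17 (95% interval -3.51 to -2.84). It was also lower in takinib than in the vehicle cells of either sex, which stood at 1076 CPM (female) and 1674 (male). After each cell was thinned to 1000 UMIs, 46.7% of vehicle and 14.7% of takinib fibroblast-like cells had a Col8a1 UMI, against 3.20% and 0.242% of T-like cells, a class that should lack this chain; without thinning the fibroblast-like shares were 62.9% and 28.4%. Over the 14 other settings examined its log2 ratio ran from -4.88 to -1.42. Its partner Col8a2 stood at 56.3 and 18.2 CPM, a log2 ratio of -1.63 (-2.80 to -0.66) resting on 9 takinib counts. In the 585 vehicle and 14 takinib perivascular-like cells Col8a1 stood at 561 and 213 CPM. Female and male vehicle cells of that class had 284 and 596 CPM.

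Over the class, the type I chains were lower in takinib and type III was at about the same level, but within its clusters, described below, types I and III had like ratios. Col1a1 stood at 12442 CPM in vehicle and 8578 in takinib, a log2 ratio of -0.54 (-0.58 to -0.49). Col1a2 stood at 9854 and 7153 CPM, a log2 ratio of -0.46. Col3a1 stood at 11638 and 11834 CPM, a log2 ratio of 0.02. Female vehicle cells had 8083 CPM of Col1a1 and 6457 of Col3a1, and male ones 14051 and 12776, so for both genes the takinib level lay between those of the vehicle sexes. Col3a1 had a log2 ratio between -1.45 and 0.87 over 14 other settings and Col1a1 between -1.71 and 0.11. Among the minor fibrillar chains Col5a2 had a log2 ratio of -0.81, Col5a1 of -0.23 and Col5a3 of -0.02.

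The fibril-associated and multiplexin chains were spread widely. Col12a1 stood at 2252 and 1024 CPM, a log2 ratio of -1.14 (-1.27 to -1.01), and Col15a1, which links fibrils to basement membrane, at 1024 and 464, also -1.14 (-1.34 to -0.94). Female vehicle cells had 1851 CPM of Col12a1 and 1162 of Col15a1, and male ones 2639 and 906. Of the 118 female vehicle cells 108 were in cluster 20, described below, as were 55 of the 95 takinib cells, so these class values also carry the mix of clusters. Col16a1, a fibril-associated chain, had a log2 ratio of -0.92. Col14a1 went the other way, with 169 CPM in vehicle and 293 in takinib and a log2 ratio of 0.79 (0.51 to 1.07), but its direction differed between the clusters described next. The type VI chains Col6a1, Col6a2 and Col6a3 had ratios of -0.62, -0.84 and -0.50, and the basement membrane chains Col4a1 and Col4a2 of -0.28 and -0.20. Col27a1, at 60.99 and 30.3 CPM, was the last of the 5 genes past 2-fold, and Col4a5 lay just inside the limit at -0.99.

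These class values joined 2 fibroblast-like clusters that differed in their collagens and in their share of each library. Cluster 20, led by Igfbp3, Sfrp1 and Cilp, had 441 vehicle and 55 takinib cells. Cluster 30, led by Clec3b, Dpt and Lum, had 120 and 40. Vehicle cells of cluster 20 had 1649 CPM of Col8a1 and 2651 of Col12a1, and those of cluster 30 had 113 and 229. Col14a1 ran the opposite way, at 72.5 CPM in cluster 20 and 658 in cluster 30.

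In cluster 20 the collagen share was 4.85% in vehicle and 2.64% in takinib, below the 3.65% of its female and the 5.14% of its male vehicle cells. Col1a1 stood at 12908 and 6080 CPM, a log2 ratio of -1.09, with 8510 in female and 14055 in male vehicle cells, and Col1a2 and Col3a1 had ratios of -1.01 and -1.02. Col8a1 stood at 1649 and 280 CPM, a ratio of -2.56 (-2.93 to -2.20). Neither Col12a1, at 2651 and 1933 CPM (-0.46), nor Col15a1, at 1111 and 637 (-0.80), was past 2-fold within this cluster, and for Col12a1 female vehicle cells stood at 1973 CPM and female takinib cells at 2026. Col4a1, at 1156 and 1135 CPM, had a ratio of -0.03. Col14a1 was higher in takinib, at 72.5 and 208 CPM. Of 22 chain genes compared in cluster 20, 5 were at least 2-fold lower and 1 at least 2-fold higher, against 11.9% and 3.49% of all genes compared. Among the lower ones Col4a5, at -2.96 (-6.03 to -1.08), was compared on its vehicle counts alone, with 119 in vehicle and 2 in takinib.

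In cluster 30 the collagen share was 4.66% in vehicle and 4.48% in takinib. Col1a1, at 10080 and 10841 CPM, and Col3a1, at 17687 and 17895, had log2 ratios of 0.11 and 0.02. Col14a1 was lower in takinib here, at 658 and 369 CPM, a ratio of -0.83 (-1.19 to -0.48). Col4a1 was too, at 1540 and 885 CPM, a ratio of -0.80 (-1.03 to -0.57). Of 16 chain genes compared there, 3 were at least 2-fold lower (Col6a2 at -1.09, Col16a1 at -1.38 and Col18a1 at -1.21) and 0 higher, against 9.46% and 5.66% of all genes. Col16a1 and Col18a1 were compared on their vehicle counts alone. Col16a1 had 78 vehicle and 22 takinib counts (interval -2.13 to -0.68), and Col18a1 had 63 and 20 (-2.01 to -0.46). The female vehicle cells of this cluster numbered 10 and the male ones 36, with shares of 1.41% and 5.94%.

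**Figure D3:**
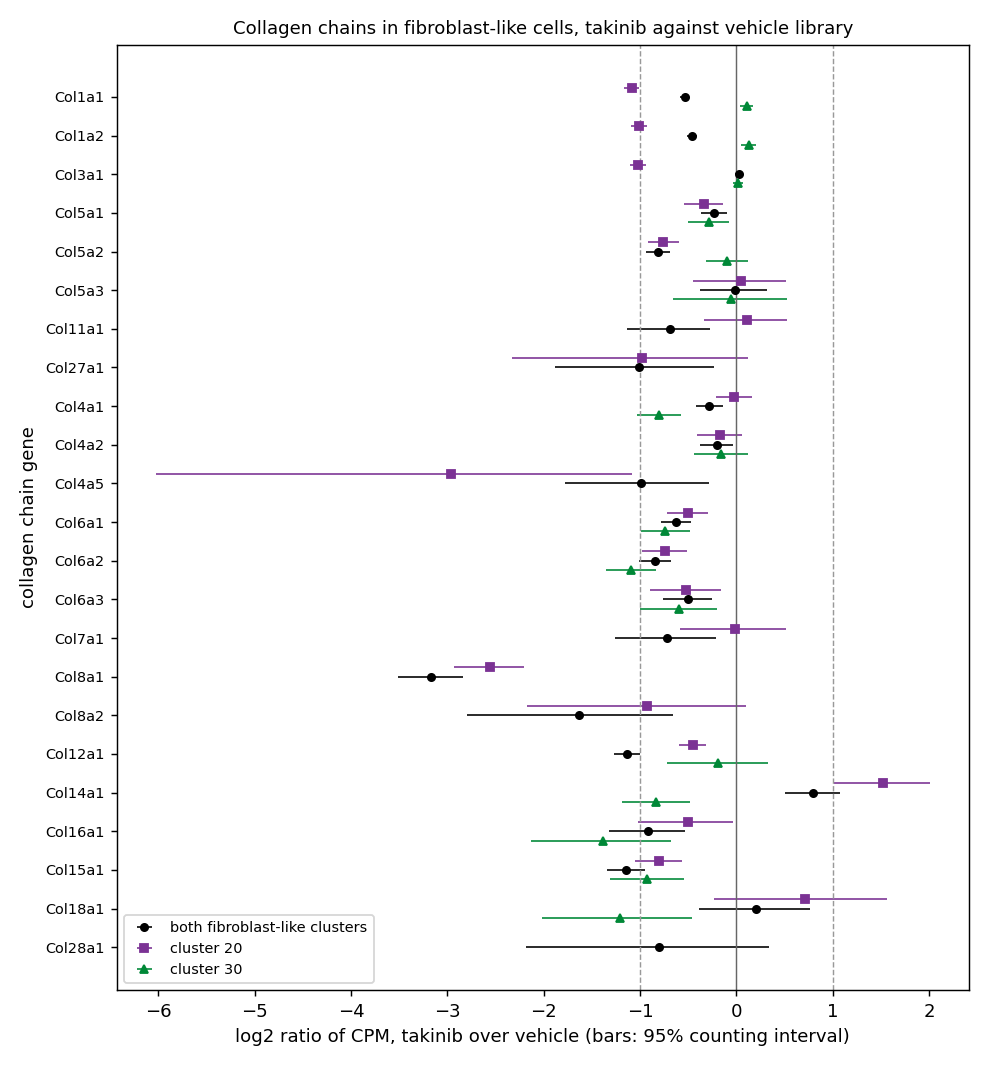
Takinib to vehicle log2 ratio of each chain gene compared in fibroblast-like cells (black) and in its cluster 20 (purple) and cluster 30 (green), with 95% counting intervals; dashed lines mark 2-fold. Type I and III chains lie near -1 in cluster 20 and near 0 in cluster 30. Col8a1 is the lowest of the black points. Col4a5 is the lowest of the purple ones, but rests on 119 vehicle and 2 takinib counts.

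Most collagen of the takinib library lay outside the named classes. Cluster 32, led by Serpinb2, Timp1, Mmp3 and Cxcl5, scored highest for fibroblast markers and close behind for mesothelial ones, and so stayed unnamed. It had 2 vehicle and 155 takinib cells, a median of 12740 UMIs per takinib cell, a collagen share of 1.73% and 44.5% of all takinib collagen UMIs. Its Col1a1 stood at 4925 CPM, Col3a1 at 4375 and Col8a1 at 23.9. Cluster 21, led by Dcn, Mgp and Calca and scoring highest for mesothelial markers, had 100 vehicle and 84 takinib cells and shares of 1.44% and 1.75%. There Col1a1 had a log2 ratio of 0.62 and Col3a1 of 0.34, while Col12a1 had -2.11. With clusters 21, 31 and 32 added to the fibroblast-like cells, 683 vehicle and 341 takinib cells had shares of 3.99% and 1.96%, and 14 of 25 chain genes were at least 2-fold lower and 2 higher, against 11% and 7.01% of all genes. Among the lower chains Col8a2 (125 vehicle and 15 takinib counts) and Col28a1 (57 and 8) were compared on their vehicle counts alone. Of the higher ones Col24a1 (25 and 237) was compared on its takinib counts alone. The count of lower chains thus rests on which clusters are taken as fibroblasts. With the unnamed clusters added, Col3a1 stood at a log2 ratio of -0.81, Col14a1 at -1.40 and Col18a1 at -0.64, whereas in the 2 fibroblast-like clusters joined they stood at 0.02, 0.79 and 0.20.

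**Figure D4:**
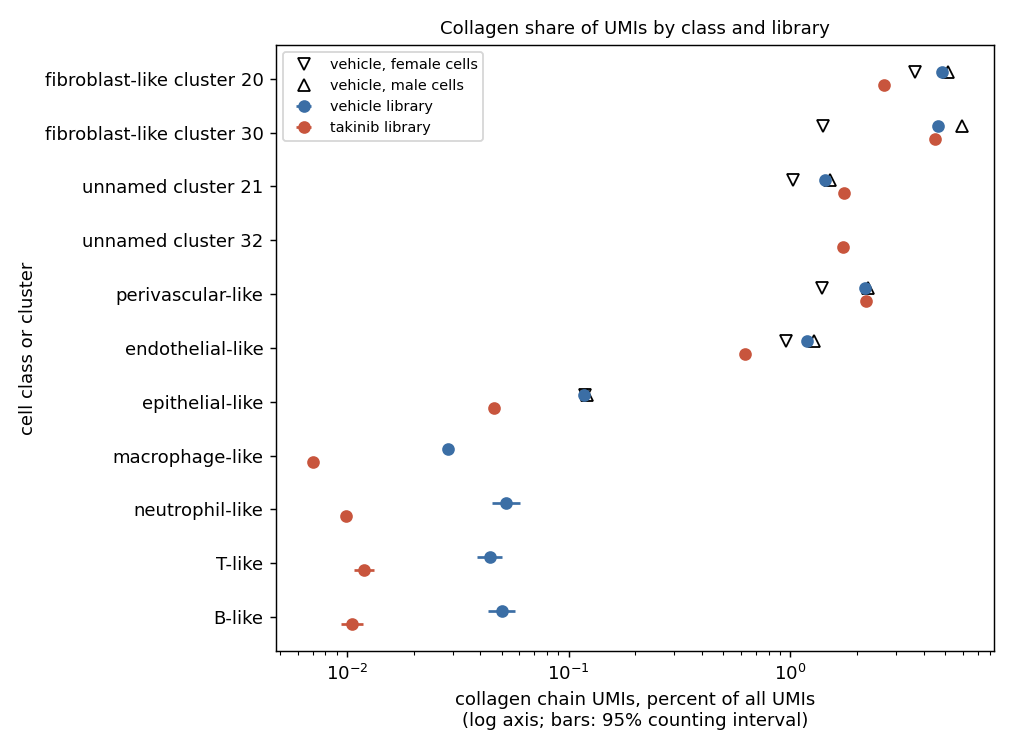
Collagen UMIs as a percent of all UMIs (x axis, log scale) in each cluster or class with at least 10 cells in a library; blue circles are vehicle, red circles takinib, open triangles the vehicle cells of each sex. Takinib lies left of vehicle in cluster 20, endothelial-like, epithelial-like and all leukocyte classes, and near it in cluster 30 and perivascular-like cells.

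Perivascular-like cells were few in takinib and their values are set side by side only. Their collagen share was 2.17% in vehicle and 2.19% in takinib, but 1.39% in the female and 2.24% in the male vehicle cells. The 11 female takinib cells stood at 2.27%. Col10a1 stood at 957 CPM in vehicle, with 1223 in 202 male and 242 in 47 female cells. The 14 takinib cells had 0 Col10a1 counts among 74988 UMIs, and a count of 0 allows up to 40.0 CPM. In vehicle only 20.9% of these cells had a Col10a1 UMI (15.04% when thinned to 1000 UMIs), and 0 of 14 takinib cells allows a share of up to 21.4%, so a difference in the share of cells was not detectable. Vehicle fibroblast-like cells held only 1.78% of the Col10a1 counts, with a UMI in 2.14% of 561 cells. Their 83.3 CPM in female and 2.25 in male cells thus rest on few cells. Col1a1 stood at 2253 and 3761 CPM in vehicle and takinib perivascular-like cells, Col4a1 at 4906 and 3881, Col6a3 at 1258 and 1267, and Col18a1 at 1501 and 1040. Female and male vehicle cells had 1136 and 2314 CPM of Col1a1, both below takinib. For Col4a1 they had 3471 and 5217 CPM, so the takinib level lay between them.

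Endothelial-like cells had less basement membrane collagen in takinib. Their collagen share was 1.19% in vehicle and 0.627% in takinib, and both female and male vehicle cells, at 0.958% and 1.28%, were above takinib. Col4a1, the main chain of vessel basement membrane, stood at 6171 and 3217 CPM, a log2 ratio of -0.94 (-1.02 to -0.86). Female vehicle cells had 4216 CPM of Col4a1 and male ones 6770, both above takinib. Over 10 other settings its ratio ran from -1.07 to -0.39, so its size depends on the vehicle cells compared. Col4a2 stood at 3736 and 2039 CPM, a ratio of -0.87. Col15a1 stood at 753 and 362 CPM (-1.06) and Col18a1 at 760 and 416 (-0.87). Col13a1, at 103 and 109 CPM, had a ratio of 0.09, which turned to -1.72 against the female vehicle cells alone. Of 10 chain genes compared, 6 were at least 2-fold lower and 0 higher, against 11.8% and 3.81% of all genes. Apart from Col15a1 those 6 were the fibrillar chains Col1a1, Col1a2, Col3a1, Col5a2 and Col27a1, at 28.4 to 62.3 CPM in vehicle and 2 to 7 counts in takinib. These 5 fibrillar chains were also the 5 of the 10 genes compared on their vehicle counts alone. Col1a1 stood at 55.7 and 14.4 CPM in vehicle and takinib here, and at 61.8 and 17.6 in T-like cells.

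Epithelial-like cells carried collagen at a low level that was lower still in takinib, 0.117% of UMIs against 0.0462%. Female and male vehicle cells stood at 0.119% and 0.121%. Of 21 chain genes compared, 12 were at least 2-fold lower in takinib and 1 higher, against 7.64% and 7.48% of all genes. The 1 higher, Col25a1, was compared on its takinib counts alone, with 11 in vehicle and 121 in takinib. Col15a1, among the lower ones, was compared on its vehicle counts alone, with 119 in vehicle and 38 in takinib. Col4a1 stood at 132 and 38.6 CPM (-1.77), Col18a1 at 297 and 144 (-1.05), Col27a1 at 127 and 44.7 (-1.502) and Col7a1 at 42.7 and 8.64 (-2.31). Col6a1 stood at 156 and 27.0 CPM, a log2 ratio of -2.53 (-2.67 to -2.40), and Col6a2 at 100.4 and 13.5, a ratio of -2.90.

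Cluster 9, led by Tnc, Cdkn2a and Hmga2, held 1767 of the 1791 vehicle Col6a1 counts of the class. There Col6a1 stood at 256 CPM in vehicle and 66.1 in takinib. In cluster 8, led by Dmbt1, Gkn3 and Tff2, it stood at 4.69 and 11.01 CPM, the other direction, with a log2 ratio of 1.23 (0.51 to 2.05). Cluster 9 had 1069 vehicle and 597 takinib cells and cluster 8 had 524 and 1027, so their mix differed between libraries. The log2 ratio of the collagen share was -0.92 in cluster 9 and -0.61 in cluster 8, against -1.34 for the class. In cluster 9, 9 of 20 chain genes were at least 2-fold lower and 3 higher, against 6.77% and 6.39% of all genes. In cluster 8, 3 of 13 were lower and 2 higher, against 3.59% and 8.04%. Both higher ones, Col6a1 (17 vehicle and 155 takinib counts) and Col6a2 (9 and 71), were compared on their takinib counts alone. The same held in cluster 9 for Col6a3 (26 and 60) and Col25a1, but not for Col1a2 (147 and 581). Col15a1, among the lower ones of cluster 9, was compared on its vehicle counts alone (96 and 9). In cluster 23, led by Spink4 and Muc2, the 1 chain compared, Col4a1, was lower, against 25.2% of genes lower and 19.3% higher. It was compared on its vehicle counts alone, with 51 in vehicle and 4 in takinib. Col18a1 was not past 2-fold in cluster 9 (-0.68) or cluster 8 (-0.32). Within cluster 9 the collagens went in both directions. Col4a1 had a ratio of -1.46 and Col12a1 of -2.05, whereas Col1a2 stood at 21.3 CPM in vehicle and 90.1 in takinib (2.08) and Col6a3 at 3.77 and 9.30 (1.30). Col25a1, a transmembrane collagen known from neurons, was the 1 gene past 2-fold higher in the class; it stood at 1.59 and 18.5 CPM in cluster 9, with 11 and 119 counts. When each library was clustered on its own its class ratio turned to -0.72.

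Leukocytes held little collagen, less in takinib than in vehicle in each class. The share was 0.0285% and 0.00704% in macrophage-like cells, 0.0523% and 0.00994% in neutrophil-like, 0.0440% and 0.0120% in T-like and 0.0499% and 0.0106% in B-like cells. In macrophage-like cells 14 of 14 chain genes compared were at least 2-fold lower in takinib and 0 higher, against 5.03% and 6.01% of all genes. Of these 14, 6 were compared on their vehicle counts alone. In neutrophil-like cells 8 of 9 were lower, where 38.3% of all genes were lower and 6.97% higher. The other, Col11a2, had 0 vehicle and 88 takinib counts and was not called in either direction. They were 2 of 3 in T-like cells, where 2.93% were lower and 8.36% higher, and 3 of 3 in B-like cells, where 5.23% were lower and 14.5% higher. In the last 3 classes every chain was compared on its takinib counts alone. Barcodes with more than 500 but fewer than 1000 UMIs, whose content (free RNA, damaged or small cells) was not tested, had 0.167% collagen in vehicle, with 40.4% mitochondrial UMIs, and 0.0282% in takinib, with 3.58%. Both shares were above those of the leukocyte classes of the same library. The part of free RNA in the leukocyte and epithelial-like values, and in the fibrillar chains of endothelial-like cells, was not tested.

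Erythroid-like cells, 420 in takinib and 4 in vehicle, had 1 chain well above the others. They had 177 counts of Col5a1, 48.4 CPM, in 82 cells, and at most 7 in a cell. Col5a2, with which Col5a1 assembles, had 8 counts, Col1a1 had 29 and Col3a1 had 40. The ratio of Col5a1 to Col5a2 was 22.1 (10.99 to 52.0), against 0.831 in takinib fibroblast-like cells and 1.35 in takinib neutrophil-like cells.

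Ratios between chains that assemble together or share fibrils were compared across cells. Capture may differ between genes, so a ratio is not read as a stoichiometry. Col4a1 and Col4a2 start 21 bases apart on opposite strands of chromosome 8, and their ratio was 1.65 in vehicle and 1.58 in takinib endothelial-like cells, 1.69 and 1.67 in perivascular-like, 1.47 and 1.39 in fibroblast-like and 1.90 and 1.79 in epithelial-like cells. The intervals of the libraries overlapped in each of these 4 classes, but not in cluster 30, with 1.98 (1.71 to 2.30) in vehicle and 1.27 (1.04 to 1.55) in takinib. Col3a1 to Col1a1 was 0.809 in vehicle and 0.846 in takinib in cluster 20 and 1.75 and 1.65 in cluster 30. Over both clusters it went from 0.935 to 1.38, with cluster 30 making up more of the takinib cells. Col6a3 to Col6a1 was 3.49 in vehicle perivascular-like cells, 0.352 in fibroblast-like and 0.0285 in epithelial-like cells, and 1.86, 0.383 and 0.113 in takinib. Col5a1 to Col5a2 in fibroblast-like cells was 0.557 in vehicle and 0.831 in takinib.

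**Figure D5:**
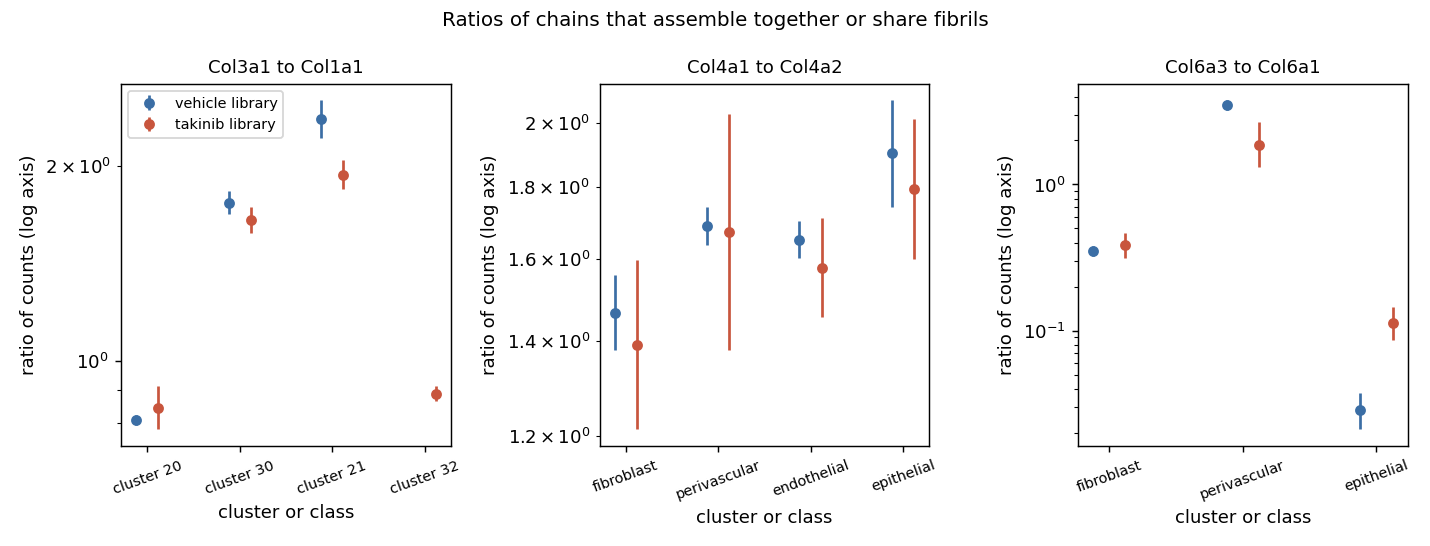
Ratio of counts of paired chains (y axes, log) by cluster or class (x axes) in the vehicle (blue) and takinib (red) library, with 95% counting intervals. Col3a1 to Col1a1 separates clusters 30 and 21 from 20 and 32, Col4a1 to Col4a2 lies between 1.39 and 1.90 in the 4 classes plotted, and Col6a3 to Col6a1 spans the classes widely.

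Genes that build, cross-link, bind and break down collagen were read in fibroblast-like cells too, where the median log2 ratio of the chains was -0.69. Of 16 chain folding and hydroxylation genes compared, 2 were at least 2-fold lower in takinib, P4ha3 (-1.25), a prolyl hydroxylase subunit, and P3h3 (-1.17), which is close to the 9.93% of all genes, and the median log2 ratio was -0.31. The highest in that list were Ppib (0.42), a folding isomerase, and Crtap (0.20). Of 5 crosslinking genes 1 was past 2-fold, Loxl3 at -1.22, while the lysyl oxidase Lox stood at 0.35 and the median was -0.83. Of 8 export and cleavage genes 0 were, with Bmp1, which trims fibrillar procollagens, at -0.95 and a median of -0.27. Of 3 collagenases 1 was past 2-fold, Mmp14, a membrane collagenase, at -1.07, with Mmp2 at -0.39 and Ctsk at -0.48. Of 6 receptor and uptake genes 2 were lower, the uptake receptor Mrc2 (-1.40) and the integrin subunit Itga11 (-2.03). Itga11 had 53 vehicle and 3 takinib counts, an interval of -4.35 to -0.40. Ddr2 was highest in that list at 0.48, and its median was -0.35. For each list the share of all genes lower is the same 9.93%. Of 9 fibril regulators Prelp (-1.67) and Fmod (-1.40) were past 2-fold and Dcn, a fibril-coating proteoglycan also used as a fibroblast marker here, was highest at 0.95, with a median of -0.05. None of these genes was 2-fold higher. P4ha3, P3h3, Loxl3, Mrc2, Itga11 and Fmod were compared on their vehicle counts alone, with 13, 33, 21, 47, 3 and 14 takinib counts. In epithelial-like cells 6 of 15 folding and hydroxylation genes were at least 2-fold lower, against 7.64% of all genes, with P4ha3 (-2.39) and Serpinh1 (-1.76), the collagen chaperone, lowest. Their median was -0.91, beside -0.14 for all genes. P4ha3 was compared there on its vehicle counts alone, with 61 in vehicle and 22 in takinib. Of 5 crosslinking genes there 3 were lower and 0 higher, with Loxl2 (-2.75) and Pxdn (-1.46) lowest and a median of -1.22. The receptor and uptake genes and the fibril regulators each had 1 lower and 1 higher of 5 compared. The remaining lists differed in direction. For each list the shares of all genes were 7.64% lower and 7.48% higher. Of 6 collagenases 3 were higher and 0 lower, with Mmp8 (6.97) and Mmp9 (3.03) highest, both of them enzymes that neutrophils carry. Of 10 export and cleavage genes 3 were lower and 2 higher, the latter Tll1 (3.05) and Pcolce (1.02). Mmp8 (3 vehicle and 713 takinib counts) and Tll1 (16 and 250) were compared on their takinib counts alone. In endothelial-like cells 4 of 11 folding and hydroxylation genes were lower, against 11.8% of all genes. Plod2, a lysyl hydroxylase, was at -1.71 (74 vehicle and 6 takinib counts) and Serpinh1 at -1.44. Of 3 fibril regulators 2 were lower, Dcn (-1.97, 59 and 4 counts) and Bgn (-1.66, 571 and 48). Of 2 collagenases 1 was higher, Mmp9 (4.69, 8 and 55 counts). Of 6 export and cleavage genes 1 was higher, Pcolce (1.76, 50 and 45). The share of all genes higher was 3.81%. Mmp9 was compared on its takinib counts alone, and Plod2, Dcn, Bgn and Pcolce on their vehicle counts alone. Neutrophil transcripts were higher in takinib in both classes, as given above, and their part in the Mmp8 and Mmp9 values was not tested.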

How the data were processed

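The authors deposited unnormalized UMI counts for every gene in every barcode, made with Cell Ranger 4 for vehicle and 6.1.1 for takinib, per the file headers, whereas the submitters' processing notes name Cell Ranger 2.1.1 and the build mm10. The takinib matrix had been filtered to deeper barcodes before deposit and the vehicle matrix had not. In both, barcodes with at least 1000 UMIs, 500 genes and at most 20% mitochondrial UMIs were kept, 9558 and 25183 after Scrublet removed 314 and 1607 doublets. Scrublet's threshold marked 0.00373% in takinib, so there the top 6% by score were taken out. Libraries were clustered together with scanpy 1.11.5 without the collagen genes (2000 variable genes, 30 components, Leiden resolution 1), and mixed stromal clusters were split once at 0.2. Clusters were named from marker lists that hold no collagen; the naming rule was set after the data were seen, and clusters whose second class scored close, or whose leading genes were another class's, stayed unnamed.

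For each class and library, counts were added up and divided by the UMIs of those cells (CPM). Log2 ratios carry no pseudocount; a count of 0 was set to a floor of 3 counts, and such a bound was called only in its own direction. They use genes with at least 50 counts in either library, need 50 cells in each, and have Clopper-Pearson intervals at 95%. Female cells had Xist and no Y-linked UMI, male cells the reverse. Named genes are the chain genes with at least 50 counts in a class and at most the 2 highest and 2 lowest of each partner list; cluster leading genes and chains named at lower counts (Col8a1 in cluster 30, Col24a1 and Col6a5 in clusters, Col5a1 with its partners in erythroid-like cells) were chosen after their values were seen. Col10a1 is also given in fibroblast-like cells, where it had fewer than 50 counts. Members and lists were chosen with earlier results of these data known. The ratio and interval were tested on simulated data. Gene positions are from GENCODE M21 on GRCm38, promoters from RefSeq.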

Additional observations from a re-analysis of the deposited data

How the results depend on the processing

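In fibroblast-like cells the count of chain genes at least 2-fold lower (5) was 15 without doublet removal, 20 with each library clustered on its own, 3 against female vehicle cells, 14 with the unnamed fibroblast and mesothelial clusters and 3 in cluster 30; the count higher (0) was 3 without a count minimum, 2 without doublet removal, 4 with each library on its own, 1 against female and 1 against male vehicle cells, 2 with the unnamed clusters and 1 in cluster 20. The median log2 ratio (-0.69) was -0.26, -1.17, -1.56 and -1.23 without a count minimum, without doublet removal, with each library on its own and with the unnamed clusters. The log2 ratio of the collagen share (-0.42) was -0.48 at 2000 UMIs and 1000 genes, -0.47 at 10% mitochondrial UMIs, -1.07 without doublet removal, -1.65 with each library on its own, 0.038 against female and -0.55 against male vehicle cells, -0.61 thinned, -1.02 with the unnamed clusters, -0.88 in cluster 20 and -0.056 in cluster 30.

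In endothelial-like cells the count lower (6) was 10 without a count minimum, 3 against female vehicle cells and 1 thinned, and the count higher (0) was 2 without a count minimum. The median (-1.26) was -0.00065 without a count minimum and -0.64 with collagens among the clustering genes. The share (-0.92) was -0.98, -1.03, -0.66, -0.63, -0.61, -0.78 and -1.03 at 2000 UMIs, at 10% mitochondrial UMIs, without doublet removal, with collagens among the clustering genes, against female vehicle cells, thinned and against male vehicle cells. In epithelial-like cells the count higher (1) was 5 without a count minimum, 0 with 10 CPM added, without doublet removal, with each library on its own and thinned, and 2 against male vehicle cells. The median (-1.07) was -0.70, -1.49, -1.65 and -1.55 with 10 CPM added, without doublet removal, with each library on its own and thinned. The share (-1.34) was -1.47 at 10% mitochondrial UMIs, -1.42 with each library on its own, -1.39 in cells with 2 marker UMIs, -1.22 thinned and -1.40 against male vehicle cells. Col25a1 in epithelial-like cells (2.54) was -0.72 with each library on its own. Thinning and the female subset leave fewer counts; other causes were not tested. The unnamed-cluster, single-cluster and male settings were chosen after seeing the data.

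No paired analysis was possible because each group has 1 library. For the same reason no replicate was left out. With each library clustered on its own, no endothelial-like value was obtained.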

Other observations

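Col24a1 and Col6a5 had most of their takinib counts in the unnamed stromal clusters. Col24a1, a fibrillar chain, had 31 counts over all vehicle cells and 292 over takinib cells, 185 of them in cluster 32 at 76.1 CPM and 40 in cluster 21 at 62.0 CPM, against 15 counts at 8.36 CPM in vehicle cluster 20. Col6a5, a type VI chain, had 94 counts at 146 CPM in takinib cluster 21 and 26 at 48.3 CPM in vehicle cluster 21. Col11a2, a minor fibril chain of cartilage, had 110 vehicle and 285 takinib counts spread over leukocyte and epithelial-like cells, 30.9% of the takinib ones in neutrophil-like cells.

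Per cell, the collagen share of fibroblast-like cells had a median of 3.39% in vehicle and 2.102% in takinib. Its 10th and 90th percentiles over cells were 1.28% and 8.08% in vehicle and 0.391% and 6.02% in takinib, so the ranges overlapped.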
